A study of Homo sapiens with 6 samples.

Results

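The genes described here are the 10 members of the MYC-MAX-MXD network, MYC, MYCN, MAX, MXD1, MXI1, MXD3, MXD4, MNT, MGA and MLX, among 60609 gene identifiers in the deposited files. They were chosen by name, and a single Ensembl identifier was found for each symbol. Their mRNA was measured by RNA sequencing in 3 STAT5B knockout and 3 wild-type libraries of HEK293, an adenovirus-transformed line from human embryonic kidney. The knockout cells came from CRISPR/Cas9 editing, and the labels describe clones with both STAT5B alleles mutated, picked by sequencing and protein blot. Both groups were HEK293 cells grown in the same serum-containing medium, and sample names in both carry the word Sham, which the labels do not explain. The growth text also uses the name GS knockout, without saying what it stands for. The number of clones and whether the 3 libraries of a group were separate cultures are not given, so p-values cover only the spread among these 6 libraries, and that spread may be technical. An effect of picking a clone and an effect of losing STAT5B cannot be told apart here, nor can, in bulk RNA, fewer cells of a kind and less RNA per cell.

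MYC and MYCN are transcription factors that bind the E-box, the DNA word CACGTG, as partners of MAX and activate genes for growth, ribosome production and metabolism. The MXD proteins and MNT also pair with MAX, occupy the same sites and recruit SIN3 and histone deacetylases to repress. MGA pairs with MAX inside a Polycomb complex that silences germline genes, and MLX is a MAX-like protein that pairs with the nutrient sensors MLXIP (MondoA) and MLXIPL (ChREBP) as well as with some MXD proteins and MNT. STAT5B is a transcription factor that cytokine receptors switch on, and in blood cells MYC is among the genes that respond to such signals.

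Depth ranged from 17494958 to 21099813 estimated counts in the knockout libraries and from 17686407 to 20279181 in the wild-type libraries. The targeted gene, STAT5B, was still transcribed in the knockout, with 63.1, 61.8 and 60.5 CPM (counts per 1000000 of a library's scaled total) in the knockout libraries and 70.1, 64.6 and 69.4 CPM in the wild-type libraries. Its log2 fold change was -0.14 (SE 0.047, edgeR adjusted p = 0.0468), a call that ended in 12 of 15 alternative settings, among them each fit without a library except that without wild-type replicate 2. A two-sided exact permutation test gave p = 0.1, the smallest that 3 against 3 libraries allow. The genotype cannot be read from the whole-gene counts of STAT5B, in which a short edit may leave no mark. An unnamed gene that overlaps STAT5B on the other strand, ENSG00000280295, had 0 to 34 counts a library. It was higher in the knockout (log2 fold change 7.92, edgeR adjusted p = 2.75e-05), and the cause was not tested. All 9 genes listed as HEK293 markers passed the filter on low counts, with 2 higher (EYA1 and VIM) and 1 lower (NEFM). Their median log2 fold change was 0.07. Their summed level was 1092 to 1110 CPM in the knockout and 1258 to 1301 CPM in the wild type. NEFM alone had means of 198 CPM in the knockout and 438 CPM in the wild type, a wider gap than that of the sum. Of 10 markers of other cell types 4 were at 0 in all libraries, including PTPRC of leukocytes and CDH5 of endothelium, and their summed level was 10.7 to 11.2 CPM in the knockout and 9.35 to 12.4 CPM in the wild type, mostly from COL1A1.

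MXI1 rose and MGA fell in the knockout, while MYC and MAX did not pass the test. The test was edgeR's quasi-likelihood test over 15958 genes, called at a Benjamini-Hochberg adjusted p under 0.05. Of the 10 members, 9 passed the filter on low counts and were tested, and MYCN did not pass it. With 1 member higher and 1 lower, the share called was near the background, since 23.4% of all tested genes were called, 12.1% higher and 11.4% lower. The median log2 fold change was -0.03 over the 9 tested members and 0.01 over all tested genes. In 3 of the 9, MXI1, MGA and MNT, the knockout and wild-type libraries did not overlap in CPM, which was so for 38.6% of all tested genes (19.9% with the knockout above and 18.7% with it below). In TPM, the deposited unit that also divides by transcript length, 4 of the 9 did not overlap, MXI1 above and MYC, MNT and MGA below, against 33.5% of all tested genes (9.78% above and 23.7% below). DESeq2 called the same 2 members, with 20.2% of its tested genes called (9.98% higher and 10.2% lower). MXI1 alone was called, as higher, in 3 further fits. These were edgeR with length and GC offsets, where 20.7% of genes were called (10.3% higher and 10.5% lower), edgeR with effective-length offsets, where 10.9% were called (5.58% higher and 5.29% lower), and limma on log2(TPM + 1), where 10.2% were called (3.06% higher and 7.11% lower).

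**Figure D1:**
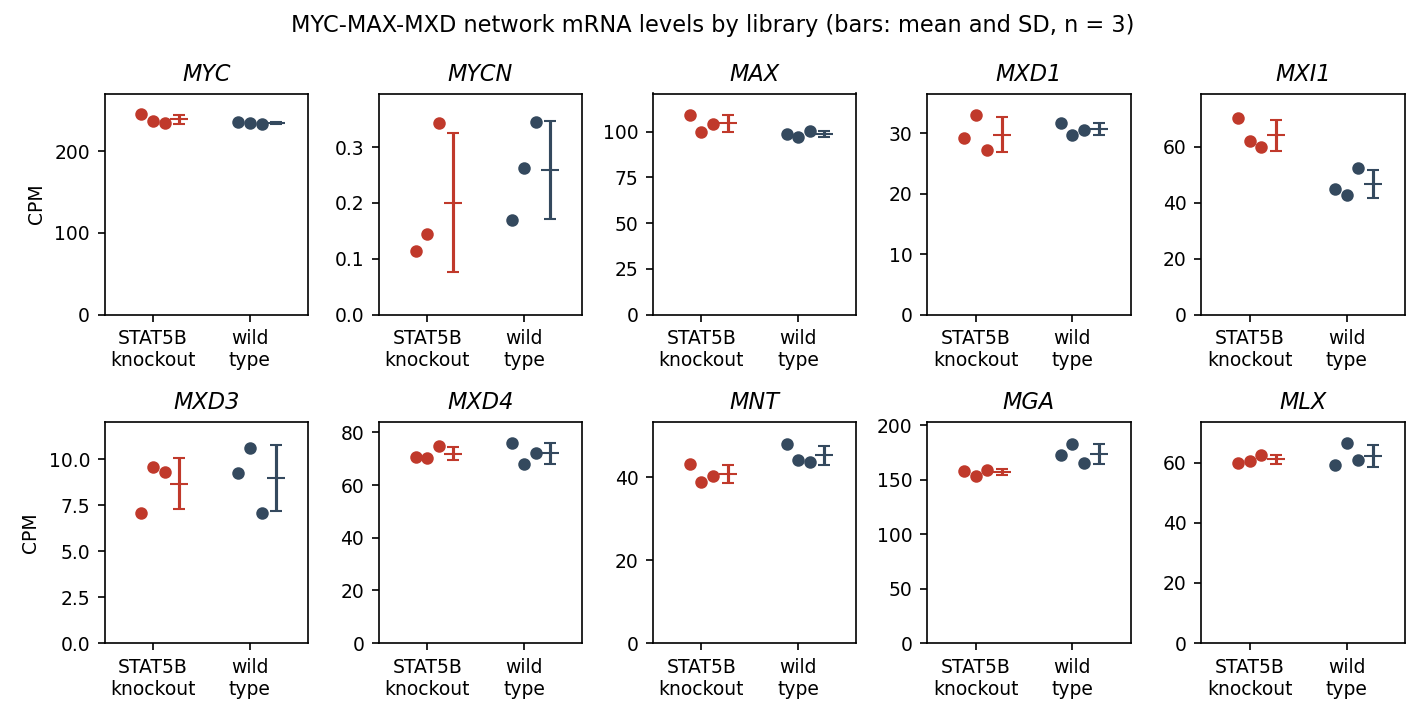
CPM of each network member (vertical axes, from 0) in the 3 STAT5B knockout libraries (red, left) and the 3 wild-type libraries (dark, right), with mean and SD beside the points. MXI1 lies at 59.8 to 70.4 CPM in the knockout and 42.9 to 52.5 CPM in the wild type, while the groups of MYC overlap.

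Sequences are shown for the member that rose and for the members whose promoter window holds an E-box, since the E-box is the word that the network's own proteins bind. The windows run from 250 bases before to 50 bases after a RefSeq start on build GRCh38.p14, and 9 of the 10 members, all but MYC, had at least 1, giving 14 windows. The words searched on both strands were the E-box CACGTG, the hypoxia response cores ACGTG and GCGTG (MXI1 is a known hypoxia target), and the STAT5 word TTCNNNGAA, and every E-box also holds ACGTG. Among all 35116 windows of this length, 7.26% held CACGTG, 21.4% ACGTG, 36.5% GCGTG and 7.66% TTCNNNGAA. MXI1 had 3 windows on the plus strand of chromosome 10, and window 1 held none of these words. Windows 2 and 3, chr10:110209981-110210280 and chr10:110225746-110226045, follow with the hypoxia response cores in capitals, read on either strand. Window 2 held ACGTG and GCGTG once each, and window 3 held GCGTG at 2 places. These cores were not particular to MXI1. GCGTG was also found in windows of MXD3 and MLX and in every window of MGA, the member that fell. ACGTG was also found in windows of MAX, MGA, MXD4, MNT and MLX.
MXI1 window 2: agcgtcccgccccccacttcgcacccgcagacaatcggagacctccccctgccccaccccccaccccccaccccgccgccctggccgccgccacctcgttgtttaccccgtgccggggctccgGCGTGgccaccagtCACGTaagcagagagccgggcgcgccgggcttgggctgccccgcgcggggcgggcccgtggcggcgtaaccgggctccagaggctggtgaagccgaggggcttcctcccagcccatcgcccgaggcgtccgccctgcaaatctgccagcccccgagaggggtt
MXI1 window 3: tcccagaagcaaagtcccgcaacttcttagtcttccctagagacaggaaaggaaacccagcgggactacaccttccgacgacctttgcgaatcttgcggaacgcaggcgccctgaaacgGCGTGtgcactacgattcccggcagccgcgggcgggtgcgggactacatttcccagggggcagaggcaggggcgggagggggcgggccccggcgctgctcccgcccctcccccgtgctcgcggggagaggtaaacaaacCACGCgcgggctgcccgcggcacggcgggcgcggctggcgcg

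The E-box was found in 3 of the 14 windows, once each in MXD4, MNT and MLX. The 30 bases around each follow on the strand of the gene, at chr4:2262330-2262359 (minus), chr17:2401236-2401265 (minus) and chr17:42567038-42567067 (plus), with the E-box in capitals.
MXD4: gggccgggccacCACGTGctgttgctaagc
MNT: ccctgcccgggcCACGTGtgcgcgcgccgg
MLX: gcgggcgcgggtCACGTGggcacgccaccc
None of the 14 windows, which do not include MYC, held TTCNNNGAA. A match is a run of letters and not a measured site, and these 3 members were not among the called ones.

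MYC (ENSG00000136997, plus strand of chromosome 8, 127735434 to 127741434, hg38) was the most abundant member. It had 245, 236 and 235 CPM in the knockout libraries, against 235, 234 and 233 CPM in the wild-type libraries. Knockout replicate 1 was highest, and the other 2 knockout libraries lay within or just above the wild-type range. The means were 239 ± 5.62 CPM in the knockout and 234 ± 1.1 CPM in the wild type (SD, n = 3 each). The log2 fold change was 0.03 (SE 0.031, edgeR adjusted p = 0.554). In TPM, where the length is estimated for each library, MYC had 202, 193 and 194 TPM in the knockout libraries and 207, 211 and 205 TPM in the wild-type libraries, so that all knockout values lay below all wild-type values. Limma on log2(TPM + 1) gave -0.08 (adjusted p = 0.184), on a scale where the median of all tested genes was itself -0.06. The deposited length of MYC was 2279 to 2294 bases in the knockout and 2228 to 2263 bases in the wild type. The sign of the small MYC difference thus depended on the scale, and it passed the threshold on neither.

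MYCN (ENSG00000134323, plus strand of chromosome 2, 15940564 to 15947007), the paralogue best known from neural tissue and neuroblastoma, was barely detected. Its counts were 2, 3 and 6 in the knockout libraries and 3, 5 and 7 in the wild-type libraries. The groups overlapped, and a difference was not detectable at this depth.

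MAX (ENSG00000125952, minus strand of chromosome 14, 65006174 to 65102695) is the shared partner of MYC, the MXD proteins, MNT and MGA. It had 109, 99.9 and 104 CPM in the knockout libraries and 98.5, 97.3 and 100.3 CPM in the wild-type libraries. The groups overlapped only through knockout replicate 2 and wild-type replicate 3. The log2 fold change was 0.08 (SE 0.040, edgeR adjusted p = 0.170), and it stayed positive and uncalled in all 15 alternative settings. Its size varied, at 0.05 without knockout replicate 1, 0.04 with length and GC offsets and 0.20 with effective-length offsets. MAX overlaps FNTB on the other strand (395 to 579 counts a library), and the sources used here do not say whether counting used strand.

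Among the repressors, MXI1 (ENSG00000119950, plus strand of chromosome 10, 110207605 to 110287365), also called MXD2, was the member that rose. It had 70.4, 62.1 and 59.8 CPM in the knockout libraries, against 45.0, 42.9 and 52.5 CPM in the wild-type libraries. Every knockout library lay above every wild-type library. The means were 64.1 ± 5.57 CPM in the knockout and 46.8 ± 5.03 CPM in the wild type (SD, n = 3 each), a 1.37-fold rise (log2 0.45, SE 0.075, edgeR adjusted p = 6.59e-04). The rise was called in all 15 alternative settings, with log2 values of 0.38 without knockout replicate 1 to 0.54 without wild-type replicate 3, and it was 0.40 with the length and GC offsets, which were added after seeing the data. Its 50 nearest tested genes on chromosome 10 had a median log2 fold change of -0.04, with 2 higher and 7 lower. The only annotated genes that overlap it had 0 or 1 counts a library.

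The tested genes whose pattern over the 6 libraries was most like that of MXI1 were SRPK2 (r = 0.996), RAB28 (r = 0.996) and TXLNG (r = 0.994), by Pearson correlation of log2 CPM across 11519 named genes. Their log2 fold changes were smaller than that of MXI1 (0.45), at 0.13, 0.23 and 0.12, and in TPM the groups of each overlapped. With 6 libraries that fall into 2 groups such correlations are a description only, and 207 genes had r above 0.95.

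The other MXD genes did not pass the test. MXD1 (ENSG00000059728, plus strand of chromosome 2, 69897688 to 69942945), an early differentiation gene in blood cells, had 29.1, 32.9 and 27.3 CPM in the knockout libraries and 31.7, 29.7 and 30.5 CPM in the wild-type libraries. Its log2 fold change was -0.04 (SE 0.071, edgeR adjusted p = 0.761), with the knockout values spread on both sides of the wild type. MXD1 overlaps SNRNP27 on the same strand, whose log2 rise was 0.21 (edgeR adjusted p = 0.0199). MXD3 (ENSG00000213347, minus strand of chromosome 5, 177301461 to 177312757), the MXD protein linked to dividing cells, was low, with 7.10, 9.60 and 9.31 CPM in the knockout libraries and 9.25, 10.6 and 7.09 CPM in the wild-type libraries. Both groups spanned nearly the same range, and the log2 fold change of -0.04 had the widest error of the members (SE 0.15, edgeR adjusted p = 0.874).

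MXD4 (ENSG00000123933, minus strand of chromosome 4, 2247432 to 2262294), a repressor typical of resting cells, had 70.7, 70.2 and 74.9 CPM in the knockout libraries and 75.9, 68.1 and 72.0 CPM in the wild-type libraries. The means were 71.9 ± 2.59 CPM in the knockout and 72.0 ± 3.91 CPM in the wild type (SD, n = 3 each). The log2 fold change was -0.0010 (SE 0.049, edgeR adjusted p = 0.993). The sign of this value turned in 6 alternative settings, none of which called it. MXD3 overlaps RAB24 on its own strand and PRELID1 on the other, so reads assigned to MXD3 may be shared with them.

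MNT (ENSG00000070444, minus strand of chromosome 17, 2384060 to 2401118), the widely expressed antagonist of MYC, was lower without passing the threshold. It had 43.2, 39.0 and 40.3 CPM in the knockout libraries, against 48.1, 44.3 and 43.7 CPM in the wild-type libraries. The groups did not overlap, but the gap was small, since knockout replicate 1 lay just under wild-type replicate 3. The log2 fold change was -0.15 (SE 0.059, edgeR adjusted p = 0.0768), and it was not called in any of 15 alternative settings, where it ran from -0.31 on log2(TPM + 0.1) to -0.08 with length and GC offsets (adjusted p 0.0514 to 0.353). Its chromosomal surroundings went the other way. The 50 nearest tested genes had a median of 0.09, with 16 higher and 1 lower, although chromosome 17 as a whole had a median of -0.07. MNT was thus lower in a stretch that was higher, and the difference between the gene and its stretch was not tested.

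MGA (ENSG00000174197, plus strand of chromosome 15, 41621224 to 41773081), the large MAX partner of the Polycomb complex, was the member that fell. It had 158, 154 and 159 CPM in the knockout libraries, against 173, 183 and 165 CPM in the wild-type libraries. No knockout library reached the lowest wild-type library. The means were 157 ± 2.90 CPM in the knockout and 174 ± 9.05 CPM in the wild type (SD, n = 3 each). The log2 fold change was -0.15 (SE 0.040, edgeR adjusted p = 0.0164). The call ended without knockout replicate 2 (adjusted p = 0.0653) or wild-type replicate 2 (0.0972), on log2(TPM + 1) (0.130) and under effective-length offsets (0.152). With length and GC offsets together the value was 0.01 (adjusted p = 0.821), while effective-length offsets and log2(TPM + 1) left MGA lower, at -0.17 and -0.23.

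The MGA transcript is among the longest measured, with a mean deposited length of 10100 bases. The 1596 longest tested genes, from 5364 bases upwards, hold MGA and MXD1 and had a median log2 fold change of -0.12, with 36.6% lower and 5.45% higher. The 1596 shortest had a median of 0.09, with 2.26% lower and 16.2% higher. Length moved with the fold change across the whole table in this way, and its part in the MGA value, apart from that of GC content, was not tested. The 50 nearest tested genes of MGA had a median of -0.05, with 2 higher and 8 lower.

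MLX (ENSG00000108788, plus strand of chromosome 17, 42567068 to 42573239) lies 290 kb from STAT5B. It had 60.0, 60.4 and 62.6 CPM in the knockout libraries and 59.3, 66.4 and 60.7 CPM in the wild-type libraries. The groups overlapped, with a log2 fold change of -0.03 (SE 0.051, edgeR adjusted p = 0.755). Its 50 nearest tested genes had a median of -0.07, with 3 higher and 11 lower. MLX overlaps PSMC3IP on the other strand (338 to 474 counts a library). Around MYC, MYCN, MAX, MXD1, MXD3 and MXD4 the medians of 50 genes lay between -0.05 and 0.01.

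**Figure D2:**
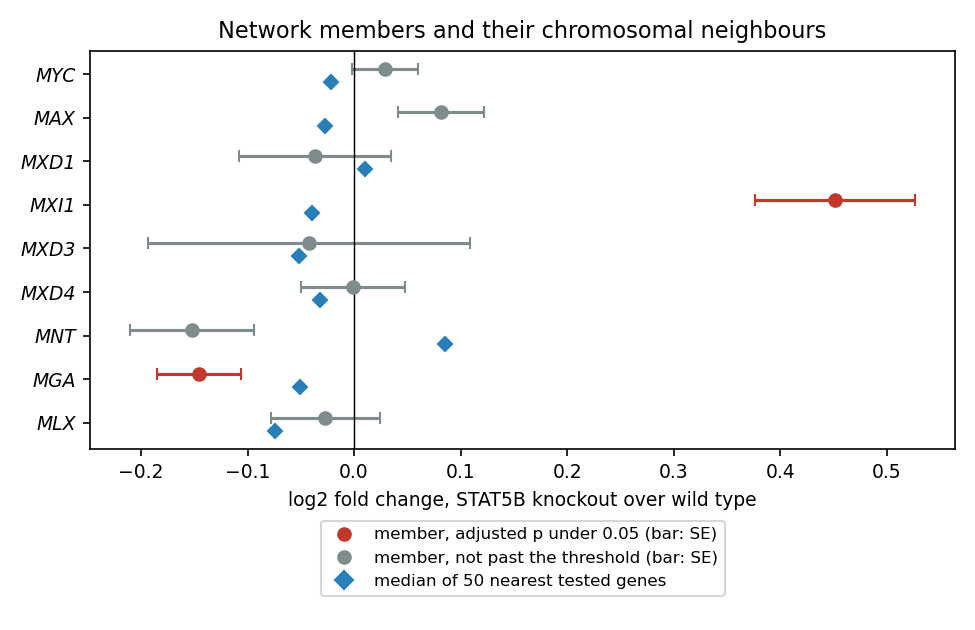
Log2 fold change of STAT5B knockout over wild type (horizontal axis) for the 9 tested members (circles with SE) and the median of the 50 nearest tested genes of each (diamonds). MXI1 lies at 0.45 against a neighbourhood of -0.04, and MNT at -0.15 against 0.09.

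Levels were set side by side between genes only in TPM, which is per length. In the knockout the order was MYC (196 ± 4.94 TPM, SD, n = 3), MAX (109 ± 4.64), MXI1 (54.0 ± 3.20), MLX (50.3 ± 2.70), MXD4 (38.5 ± 4.08), MGA (23.2 ± 1.40), MNT (18.1 ± 0.821), MXD3 (11.2 ± 1.35), MXD1 (8.77 ± 0.785) and MYCN (0.165 ± 0.085). Of these neighbours only MXI1 and MLX overlapped between libraries. In the wild type the order was MYC (208 ± 2.70 TPM, SD, n = 3), MAX (99.8 ± 8.90), MLX (51.8 ± 6.60), MXD4 (40.6 ± 2.51), MXI1 (40.4 ± 2.98), MGA (27.4 ± 2.63), MNT (22.4 ± 2.05), MXD3 (12.7 ± 1.18), MXD1 (9.76 ± 0.269) and MYCN (0.231 ± 0.103), and only MXD4 and MXI1 overlapped. MXI1 thus stood at rank 3 of 10 in the knockout and at rank 5 in the wild type, and the other members kept their relative order.

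MXI1 took a larger share of the repressor mRNA in the knockout. It made up 44.5%, 40.6% and 39.2% of the summed TPM of the 5 repressors MXD1, MXI1, MXD3, MXD4 and MNT in the knockout libraries, against 31.4%, 30.8% and 33.9% in the wild-type libraries. The groups did not overlap. The repressor sum itself was 130, 128 and 133 TPM in the knockout libraries and 130, 121 and 127 TPM in the wild-type libraries, which overlapped. Set against 100 TPM of MYC, the repressors came to 64.3, 66.7 and 68.6 TPM in the knockout libraries and 63.0, 57.3 and 61.8 TPM in the wild-type libraries. These ranges lay close together, from 63.0 at the top of the wild type to 64.3 at the bottom of the knockout. All 10 members together came to 510 ± 7.57 TPM in the knockout and 513 ± 7.57 TPM in the wild type (SD, n = 3 each).

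**Figure D3:**
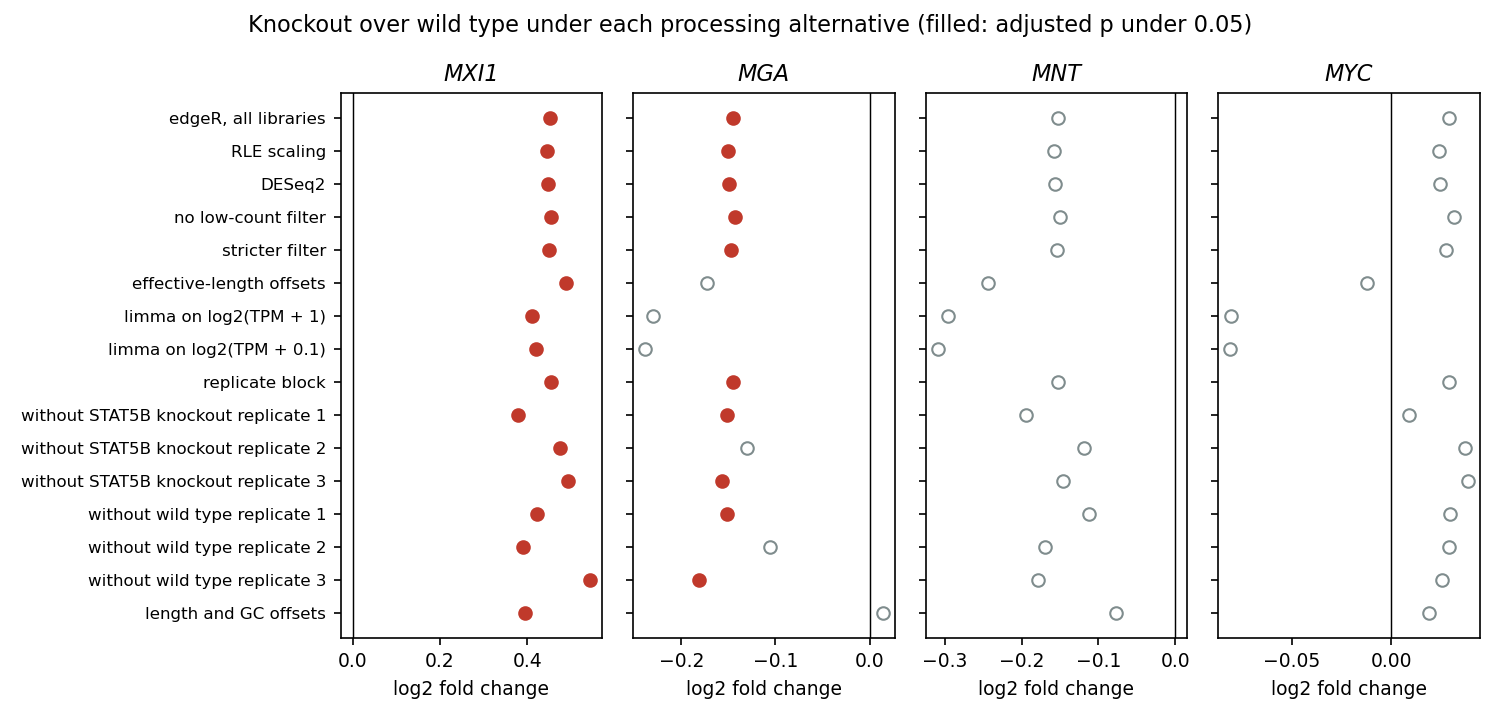
Log2 fold change of STAT5B knockout over wild type (horizontal axes, which differ in range) for MXI1, MGA, MNT and MYC under the edgeR fit and 15 alternatives (rows); filled points have an adjusted p under 0.05. MXI1 is called in every row, MGA is called in 10 of 16 and reaches 0.01 with length and GC offsets, and MNT and MYC are called in none.

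Genes around the network were grouped into 8 lists, 152 genes of which 132 were tested, and described by counts and medians, with no test of a list. Together 21 were higher and 24 lower, which is 15.9% and 18.2% against 12.1% and 11.4% of all tested genes. Chromosome 1 bears on these counts, since its 1574 tested genes had a median log2 fold change of 0.15 with 35.8% higher.

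The relatives and regulators of MYC went both ways, with 3 of 25 higher, 4 lower and 18 not past the threshold (median -0.03). That is 12% higher and 16% lower, beside 12.1% higher and 11.4% lower of all tested genes. MLXIP, the MLX partner that senses glucose, had 103, 112 and 114 CPM in the knockout libraries against 157, 153 and 141 CPM in the wild-type libraries, a fall of 0.45 on the log2 scale (log2 fold change -0.45, SE 0.048, edgeR adjusted p = 2.42e-05). The groups did not overlap, and the fall of MLXIP was called in all 15 alternative settings, at -0.30 to -0.49. Its relative MLXIPL was at 9.66 to 9.84 CPM in the knockout and 9.25 to 11.4 CPM in the wild type, and was not called (edgeR adjusted p = 0.756). MYCBP2, a large ubiquitin ligase that binds MYC, and USP36, a nucleolar deubiquitinase that stabilises MYC, fell (log2 fold changes -0.35 and -0.25). HUWE1, a ubiquitin ligase of MYC, rose by 0.16, and PPP2R5A, a phosphatase subunit, and MYCBP, a small MYC-binding protein, rose by 0.20 and 0.21. The last 2 lie on chromosome 1, and on log2(TPM + 1) the calls of HUWE1, PPP2R5A, MYCBP and MYCBP2 ended (adjusted p = 0.761, 0.242, 0.163 and 0.0644). The HUWE1 call also ended without wild-type replicate 3 (0.0633). MLXIP and MYCBP2, with mean lengths of 6761 and 7594 bases, belong to the 1596 longest tested genes, of which 36.6% were lower. HUWE1, which rose, is also among them, at 8323 bases.

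Of 12 coactivators that MYC recruits, 6 fell, 1 rose and 5 did not pass (median -0.15). These shares were 50% lower and 8.33% higher, beside 11.4% lower and 12.1% higher of all tested genes. EP400, a chromatin remodeller, had 120, 119 and 121 CPM in the knockout libraries and 167, 166 and 154 CPM in the wild-type libraries (log2 fold change -0.44, SE 0.038, edgeR adjusted p = 4.31e-06). The acetyltransferase EP300 and the scaffold TRRAP fell (log2 fold changes -0.33 and -0.25). RUVBL2, an ATPase of the same complexes, rose by 0.10 (edgeR adjusted p = 0.0460), a call that ended in 14 of 15 alternatives. EP400, EP300 and TRRAP have mean lengths of 10271, 7592 and 11339 bases, and so belong to the 1596 longest genes. So do HCFC1 and CREBBP, at 8313 and 6206 bases, which also fell and are given here for their length. The remaining coactivator called lower, KAT2A, is not among the longest genes, with a mean length of 2602 bases. It fell by 0.25 (edgeR adjusted p = 5.26e-04) and lies on chromosome 17, which also holds STAT5B. Of the 1596 longest genes 36.6% were lower. With length and GC offsets 3 of 12 were called lower, EP400 and EP300 among them at -0.23 and -0.19, while TRRAP was at -0.04 (adjusted p = 0.439).

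Of 17 genes of the SIN3-HDAC corepressor, which MXD proteins and MNT recruit, 6 rose, 4 fell and 7 did not pass (median 0.09). That is 35.3% higher and 23.5% lower, beside 12.1% higher and 11.4% lower of all tested genes. ARID4B, a DNA-binding subunit, rose by 0.43 on the log2 scale, and the deacetylases HDAC1 and HDAC2 by 0.20 each (edgeR adjusted p = 4.82e-04 and 2.66e-04). HDAC2 had 411, 408 and 403 CPM in the knockout libraries, against 353, 358 and 356 CPM in the wild-type libraries, a narrow spread in both groups. The scaffold SIN3B fell by 0.22, and SAP30L and SUDS3, further subunits, fell by 0.29 and 0.12. The SUDS3 call ended in DESeq2 (adjusted p = 0.0799), in 5 of the 6 fits without a library and in 4 other alternatives. SIN3A, the other scaffold, had a log2 fold change of 0.08 (edgeR adjusted p = 0.118) and is given here after its value was seen. Of the 6 higher genes 3 lie on chromosome 1, ARID4B and HDAC1 among them, and away from it 3 of 14 were higher. On log2(TPM + 1) 0 were called higher, and SAP30L turned to 0.21 (adjusted p = 0.158). All knockout libraries of SAP30L lay below all wild-type libraries in CPM but above them in TPM. It had 44.1, 45.2 and 39.7 TPM in the knockout libraries and 39.4, 39.2 and 32.9 TPM in the wild-type libraries. The deposited length of SAP30L was 1104 to 1378 bases in the knockout and 1760 to 1895 bases in the wild type.

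Of 9 partners of MGA in its Polycomb complex, called PRC1.6, 1 rose, 0 fell and 8 did not pass (median 0.03). That is 11.1% higher and 0% lower, beside 12.1% higher and 11.4% lower of all tested genes. The rise was in RNF2, a ubiquitin ligase on chromosome 1, with a log2 rise of 0.32 (edgeR adjusted p = 5.92e-04), a call that ended on log2(TPM + 1) (0.0823). No partner was called lower by DESeq2 or in any other alternative. At an unadjusted edgeR p under 0.05, 0 of the 9 were lower and 3 were higher (RNF2, YAF2 and CBX3), against 17.1% lower and 18.1% higher of all tested genes. The germline genes that this complex silences in mouse were almost silent in both groups. Of 20 such genes 7 were at 0 in every library and 3 passed the filter, STK31, TDRD6 and STAG3, of which 0 were called by edgeR, 0 had an unadjusted p under 0.05 and DESeq2 also called 0 higher. Their summed level was 2.91 to 3.98 CPM in the knockout and 3.15 to 4.57 CPM in the wild type.

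Most genes that MYC activates did not pass the threshold, with 7 of 46 higher, 5 lower and 34 not past the threshold (median 0.01). These shares, 15.2% and 10.9%, lay near those of all tested genes. NOLC1, a nucleolar chaperone of ribosome production, fell with the smallest p, with 362, 352 and 345 CPM in the knockout libraries against 500, 514 and 502 CPM in the wild-type libraries (log2 fold change -0.52, SE 0.031, edgeR adjusted p = 2.06e-07). AMD1, an enzyme of polyamine synthesis, and TCOF1, a cofactor of ribosomal RNA transcription, fell by 0.24 and 0.14, and the TCOF1 call ended with length and GC offsets (adjusted p = 0.208). CTPS1, a pyrimidine enzyme on chromosome 1, rose by 0.31, EIF4A1, a translation helicase, by 0.22 and LDHA, lactate dehydrogenase and also a hypoxia target, by 0.30. On log2(TPM + 1) the calls of EIF4A1 and LDHA ended (adjusted p = 0.127 and 0.0881). NCL, NPM1 and ODC1, common MYC readouts given here after their values were seen, had log2 fold changes of -0.07, 0.08 and 0.02 and did not pass (edgeR adjusted p = 0.283, 0.0991 and 0.759).

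Of 9 tested genes that MYC represses, 2 rose and 2 fell (median -0.05). That is 22.2% in each direction, beside 12.1% higher and 11.4% lower of all tested genes. The growth arrest gene GADD45A rose by 1.02 on the log2 scale and the cell cycle inhibitor CDKN1A by 0.61. GAS1, another growth arrest gene, had 22.9, 25.9 and 24.6 CPM in the knockout libraries and 40.5, 38.4 and 36.9 CPM in the wild-type libraries, a fall of 0.65, and the cell cycle inhibitor CDKN2B fell by 0.36 with a call that ended in 8 alternatives, among them the fits without knockout replicate 2 or 3 or wild-type replicate 1 or 3. GADD45A lies on chromosome 1.

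Of 11 tested targets of MondoA and ChREBP, 1 rose and 3 fell (median 0.01). These shares were 9.09% and 27.3%, beside 12.1% higher and 11.4% lower of all tested genes. FASN and ACACA, enzymes of fatty acid synthesis on chromosome 17, fell by 0.34 and 0.25 on the log2 scale. With mean lengths of 7551 and 5717 bases, both belong to the 1596 longest tested genes, of which 36.6% were lower. HK2 of this list, at 5603.5 bases, is also among them and was not called (log2 fold change 0.16). The part of length in the falls of FASN and ACACA, apart from that of GC content, was not tested. TXNIP, an inhibitor of glucose uptake and the best known MondoA target, had 16.02, 15.9 and 15.1 CPM in the knockout libraries and 16.6, 19.6 and 19.3 CPM in the wild-type libraries (log2 fold change -0.24, edgeR adjusted p = 0.0490), a call that ended in 11 of 15 alternatives, including each fit without a library except that without wild-type replicate 1. KLF10, a transcription factor, rose by 0.25, a call that ended on log2(TPM + 1) (adjusted p = 0.142). TXNIP lies on chromosome 1.

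**Figure D4:**
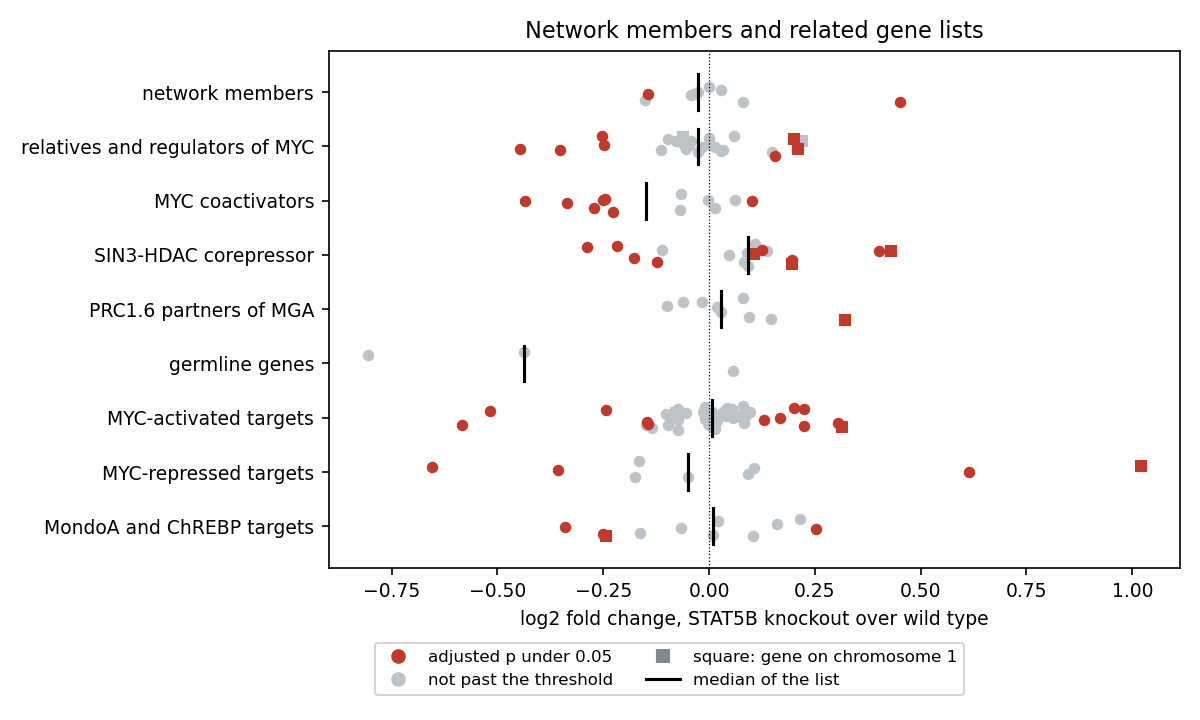
Log2 fold change of STAT5B knockout over wild type (horizontal axis) for each tested gene of the network and of the 8 related lists (rows), with called genes in red, genes on chromosome 1 as squares and the list median as a bar. The coactivators have the lowest median of the lists with at least 9 tested genes, at -0.15, and 3 of the 6 higher corepressor genes are squares.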

How the data were processed

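Per the labels, mRNA libraries were made from 3 knockout and 3 wild-type HEK293 samples. Per the submitters' processing notes, the tools were FastQC, fastp, DRAGEN and Picard and the build hg38, with no roles stated. The sources used here give neither annotation release nor strand setting. The deposited files hold estimated counts per gene, TPM and lengths in bases, per the file headers. Of the estimated counts that the authors deposited, 7.12% to 7.64% were not whole, and they were rounded. The deposited TPM summed to 1000000 in each library. Symbols came from a name table (60295 of 60609 identifiers matched) and positions from GENCODE release 29.

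The whole table was fitted with edgeR 4.0.16 in R 4.3.3 (filterByExpr with minimum count 10 and minimum total 15, TMM scaling, quasi-likelihood F test, Benjamini-Hochberg adjustment over 15958 genes). CPM use TMM-scaled library sizes. The functions were tested on simulated data. Alternatives were RLE scaling, DESeq2 1.42.0, no filter, a filter of 1 CPM in 3 libraries, effective-length offsets, limma 3.58.1 on log2(TPM + 1) and log2(TPM + 0.1), each library left out, a block for replicate number, 25 and 100 neighbours in place of 50, and offsets for length and GC content (splines with 5 degrees of freedom), the last added after seeing the data. No library repeated another: within groups, the chi-square per degree of freedom was 2.45 to 7.50.

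The text names all members and, from each list, all called genes where at most 5 were called, otherwise up to 3 per direction with the smallest p. For the called member with the smallest p, the 3 most correlated genes (mean of at least 5 CPM) are named. Members and lists were chosen with earlier results of these data known.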

Additional observations from a re-analysis of the deposited data

How the results depend on the processing

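The rise of MXI1 kept its direction and its call in all 15 alternatives (log2 0.38 to 0.54), and MAX and MNT kept their direction without a call. MGA was called lower in 9 alternatives. The count of members called lower was 0 with effective-length offsets, on both TPM scales and with length and GC offsets, and 0 to 1 over the fits that left out a library. MGA turned to 0.014 with length and GC offsets. Uncalled members turned in sign. MYC was at -0.012 with effective-length offsets and at -0.081 on both TPM scales, MXD1 at 0.019 with length and GC offsets, MXD4 at 0.0017 without a low-count filter, 6.73e-04 with the replicate block and 0.042 with length and GC offsets, and MLX at 0.027 with effective-length offsets. Leaving out a library gave -0.12 to 0.021 for MXD1, -0.19 to 0.096 for MXD3, -0.040 to 0.035 for MXD4 and -0.061 to 0.023 for MLX. SAP30L turned to 0.28 with effective-length offsets and 0.21 on both TPM scales. These settings divide by a length, and the mean deposited length of SAP30L was 1263 bases in the knockout and 1808 bases in the wild type. Why its lengths differed was not tested, nor was the cause of the other turns.

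Of all tested genes 1924 were higher and 1818 lower. These counts were 891 and 844 under effective-length offsets, 488 and 1135 on log2(TPM + 1) and 483 and 1139 on log2(TPM + 0.1), and 1339 to 1789 and 1279 to 1785 without a library. Over the 8 lists, 4 were higher on each TPM scale against 21, and 13 were lower with effective-length offsets against 24. Over all alternatives, the counts higher and lower ranged from 0 to 4 and 2 to 5 for MYC regulators, 0 to 1 and 3 to 6 for coactivators, 0 to 7 and 1 to 5 for the corepressor, 1 to 2 and 0 for MGA partners, 0 and 0 to 1 for germline genes, 1 to 8 and 3 to 7 for MYC-activated genes, 2 and 1 to 3 for MYC-repressed genes and 0 to 2 and 2 to 3 for MondoA and ChREBP targets.

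STAT5B was not called in DESeq2 (log2 -0.14), without a low-count filter (-0.14), under effective-length offsets (-0.24), by limma on log2(TPM + 1) (-0.30) or log2(TPM + 0.1) (-0.30), with the replicate block (-0.14) or with length and GC offsets (-0.11), and lay between -0.17 and -0.12 without a library. With 100 neighbours the median was -0.0054 around MYCN, -0.0080 around MAX, -0.0178 around MXI1 and 0.12 around MNT, and with 25 it was -0.0183 around MXI1 and 0.12 around MNT.

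The labels do not say that equal replicate numbers mark a shared batch. Deviations of same-numbered libraries correlated at 0.00365, 0.104 and 0.0414. Knockout replicate 1 correlated best with wild-type replicate 3 (0.0519), while knockout replicates 2 and 3 correlated best with the wild-type library of the same number. With the replicate block MXI1 was at 0.45 and MGA at -0.14, both called, with 1886 for all tested genes higher in knockout and 1773 for all tested genes lower in knockout. With few counts, MYCN and most germline genes cannot show a difference at this depth.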
